A study of Mus musculus with 7 samples.

Results

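The 9 genes described here are Pax2, Pax8, Lhx1, Pou3f3, Irx1, Irx2, Irx3, Papss2 and Sim1, which mark or pattern the early nephron. They were chosen by name, with earlier results of these data known, and all 9 were found among the 22362 genes kept from the deposited tables. Their transcripts were measured by RNA sequencing in 7 cultured kidneys of C57BL/6 mouse fetuses. All 7 carried activated beta-catenin, through which canonical Wnt signals act on transcription. In 3 of them E2-2, a transcription factor of the basic helix-loop-helix class encoded by Tcf4, was also deleted, and in 4 it was wildtype. Dissection was at 10.5 days post coitum, the day on which the mothers received 2 mg of tamoxifen per 40 g of body weight, and culture lasted 3 to 4 days. The labels do not give the Cre driver, the exons removed, the days in culture of each kidney, or whether each library came from its own animal or culture. The p-values therefore measure only how these libraries vary, and that variation may be technical.

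A nephron begins when mesenchyme beside the ureteric bud condenses, becomes a renal vesicle and then a comma- and an S-shaped body. Pax2 and Pax8, paired-box transcription factors, act from the intermediate mesoderm onward. Lhx1, a LIM-homeobox factor, is needed in the renal vesicle. Pou3f3, a POU-domain factor also called Brn1, and the Iroquois homeobox factors Irx1, Irx2 and Irx3 mark the middle and distal part of the S-shaped body, from which the loop of Henle grows. Sim1 is a transcription factor of the bHLH-PAS class, best known from the hypothalamus. Papss2 is the odd member, an enzyme that makes the sulfate donor PAPS and is best known for its role in cartilage.

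E proteins such as E2-2 bind the E-box, CANNTG, so the sequence just upstream of the members' start sites was searched for it. In the GRCm38.p6 promoter table of RefSeq, 8 of the 9 genes had an entry, with 11 start sites in all, and Irx1 had none. Of the 11 windows of 250 bases before a start, 5 held CANNTG, in Pax2, Irx2, Papss2 and Sim1, against 66.2% of 32851 such windows in the whole table. The motif reads the same on both strands. CTTTGA or its reverse complement TCAAAG, the core that TCF/LEF partners of beta-catenin bind, was in 0 of the 11 windows and in 13.8% of the whole table. These are matches of letters only. The gene positions given further below do not match GRCm38 and cannot be set beside the positions of these windows. The windows of Sim1 (chr10:50895401-50895650, plus strand), Irx2 (chr13:72628570-72628819, plus strand) and Pax2 (chr19:44756656-44756905, plus strand) are shown because they carry the letters an E protein could bind, with the E-box in capitals.
Sim1: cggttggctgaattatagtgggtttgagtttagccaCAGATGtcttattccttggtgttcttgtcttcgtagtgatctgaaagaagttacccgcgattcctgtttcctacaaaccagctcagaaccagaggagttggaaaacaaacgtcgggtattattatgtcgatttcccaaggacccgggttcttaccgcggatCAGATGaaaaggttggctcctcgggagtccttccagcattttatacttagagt
Irx2: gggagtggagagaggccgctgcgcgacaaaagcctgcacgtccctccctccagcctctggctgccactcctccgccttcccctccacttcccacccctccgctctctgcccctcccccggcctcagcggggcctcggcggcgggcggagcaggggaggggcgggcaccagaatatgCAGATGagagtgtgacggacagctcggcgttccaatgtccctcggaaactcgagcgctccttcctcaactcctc
Pax2: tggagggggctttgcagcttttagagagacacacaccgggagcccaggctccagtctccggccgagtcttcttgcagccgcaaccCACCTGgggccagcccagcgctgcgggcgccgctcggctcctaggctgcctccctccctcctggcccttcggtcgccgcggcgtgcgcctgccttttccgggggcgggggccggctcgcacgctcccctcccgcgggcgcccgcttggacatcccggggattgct
The E-boxes of Sim1 lie 214 and 53 bases before the start and both read CAGATG, as does that of Irx2, 74 bases before the start. In Pax2 the letters are CACCTG, 165 bases before this start, and CAGCTG, 64 bases before another start whose window is not shown.

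Levels are given in FPKM, which divides fragments by transcript length and by library size, so that genes can be compared per length. Differences are E2-2 deleted minus E2-2 wildtype on the log2(FPKM + 1) scale, which understates changes of genes near 1 FPKM. The inferred depth was 14.5 to 26.6 M fragments per library, from poly-A RNA. Kidney markers were present in every library, Wt1 at 19.3 to 66.4 FPKM and the epithelial cadherin gene Cdh1 at 8.30 to 36.6. Six2, the marker of nephron progenitors, ranged from 2.69 to 74.8. Tcf4 transcripts were at 33.5 to 42.0 FPKM in the deleted and 28.7 to 58.1 in the wildtype libraries, so the whole-gene level does not check the genotype. E2-2 deleted replicate 2 stood apart, with the lowest value of the 7 libraries in 44.4% of the 13466 genes tested, and the members' differences are also given without it. Of its deposited gene symbols, 25 had turned into dates, none of them a member's. The deposited names of 4 libraries begin with BI and those of 3 (deleted replicate 3, wildtype replicates 3 and 4) with BM, and the members' differences within each are given beside the pooled ones. Counts of listed genes by direction are given without a library, or within BI and BM, where these turn them. Of all genes tested, 66.1% were negative within BI and 48.6% within BM. The share was 61.3%, 46.7% and 64.3% without deleted replicates 1 to 3, and 59% and 64.4% without wildtype replicates 2 and 3.

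No member differed between the genotypes beyond the spread between replicates. With limma, 0 of the 8 members tested passed an adjusted p of 0.05, as did 0 of all 13466 genes (0%), and 0 of the 8 had an unadjusted p under 0.05, against 605 of all genes (4.49%). Irx2, with a mean of 0.898 FPKM, lay under the minimum mean of 1 FPKM and was not in that test. Deleted libraries lay all above or all below the wildtype libraries in 0 of the 9 members, against 2.84% and 2.05% of the genes tested. The difference was negative in 6 of the 8 tested members, with a median of -0.48, and in 60.7% of all genes tested, with a median of -0.05. Without deleted replicate 2, 6 of the 8 were still negative, with a median of -0.10, against 46.7% of all genes. Within BM 3 of the 8 were negative, against 48.6% of all genes there. In bulk tissue, fewer cells of a type and less RNA per cell cannot be told apart.

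**Figure D1:**
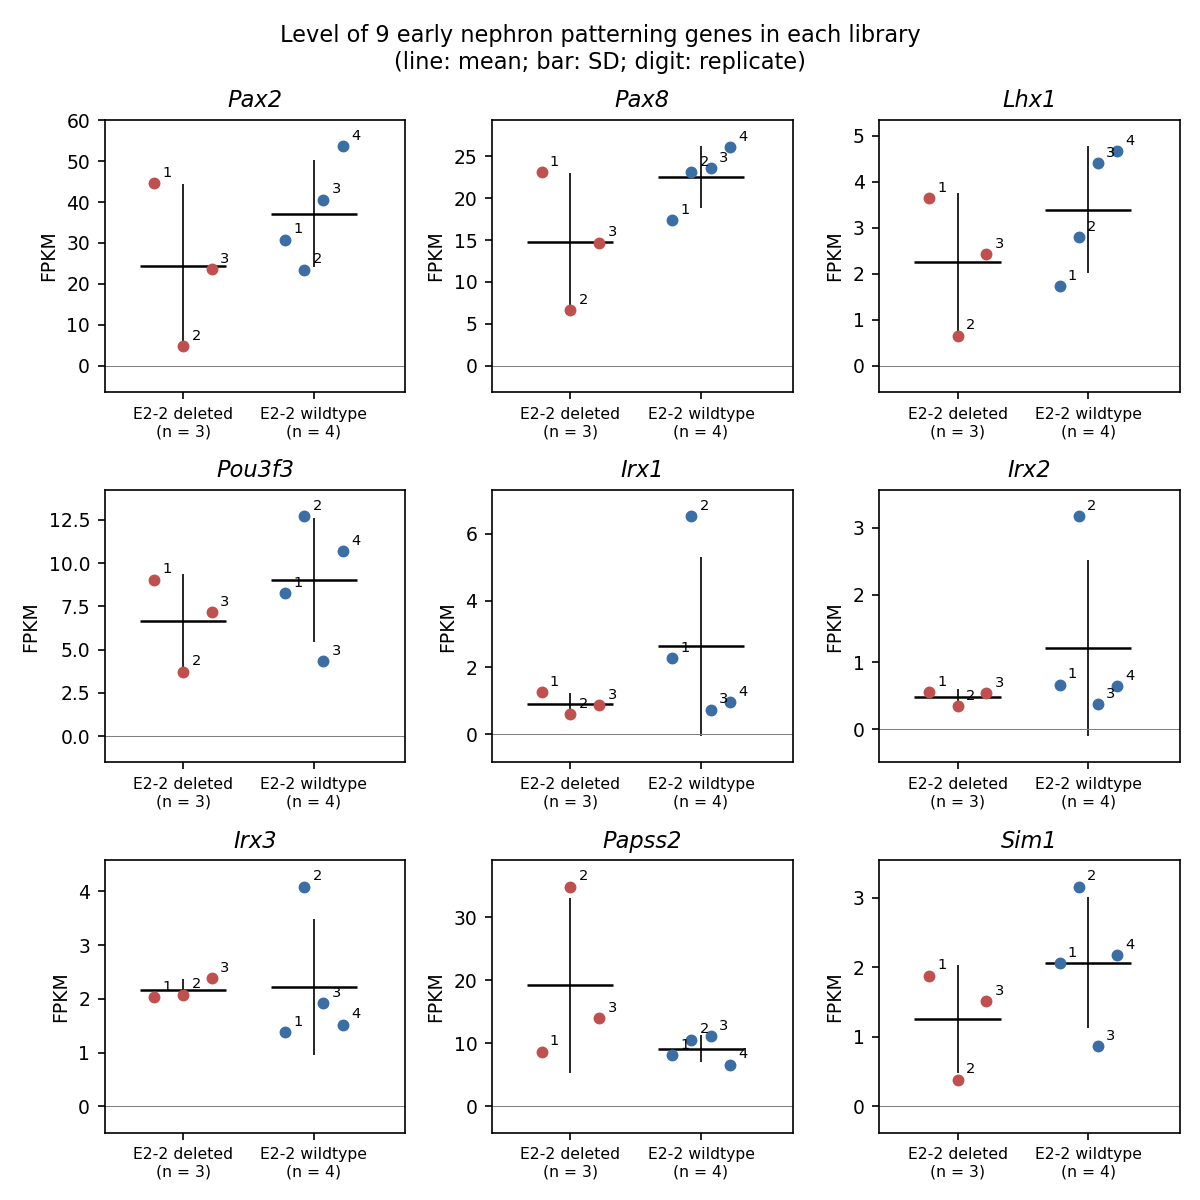
Level of each of the 9 genes in FPKM (vertical axes, linear) in the 3 E2-2 deleted and 4 E2-2 wildtype libraries; points are libraries with their replicate number, horizontal lines means and vertical bars SD. The groups overlap in every panel; deleted replicate 2 is lowest for 7 genes and highest for Papss2, and wildtype replicate 2 is highest for Pou3f3, Irx1, Irx2, Irx3 and Sim1.

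Pax2 was the most abundant member in 6 of the 7 libraries. It (chromosome 19, 44831884 to 44912359) was at 44.7, 4.79 and 23.7 FPKM in deleted replicates 1 to 3 and at 30.8, 23.5, 40.6 and 53.7 FPKM in wildtype replicates 1 to 4. Deleted replicate 2 lay far under all others, and the other deleted libraries lay within the wildtype range. The means were 24.4 ± 20.0 (SD, n = 3) and 37.1 ± 13.1 (SD, n = 4), a difference of -0.96 (SE 0.64, 95% interval -2.46 to 0.53; adjusted p in limma 0.795, p = 0.286 in the exact permutation test). The difference was -0.78 within BI and -0.95 within BM. Without deleted replicate 2 it was -0.12. Another entry, 1700039E22Rik (0.285 to 4.01 FPKM), overlaps the end of Pax2 in the deposited tables, and whether reads were counted by strand is not given.

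Pax8 (chromosome 2, 24276080 to 24331086), the closest relative of Pax2 among the members, varied less. Its levels were 23.1, 6.68 and 14.7 FPKM with E2-2 deleted and 17.4, 23.1, 23.6 and 26.1 FPKM with E2-2 wildtype. Deleted replicates 2 and 3 were under every wildtype library, and deleted replicate 1 was as high as wildtype replicate 2. The means of 14.8 ± 8.20 (SD, n = 3) and 22.5 ± 3.66 (SD, n = 4) differed by -0.71 (SE 0.35, 95% interval -1.52 to 0.11; adjusted p in limma 0.795, p = 0.171 in the exact permutation test). It was -0.63 within BI, -0.72 within BM and -0.26 without deleted replicate 2. In deleted replicate 2 Pax8 stood above Pax2: the ratio of Pax2 to Pax8 FPKM was 0.718 there, 1.02 in wildtype replicate 2 and 1.61 to 2.06 in the other 5 libraries.

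Lhx1 (chromosome 11, 84332881 to 84339036) was a low transcript, resting on 30 to 294 inferred fragments. It was at 3.65, 0.658 and 2.43 FPKM in the deleted and 1.73, 2.79, 4.40 and 4.66 FPKM in the wildtype libraries. The groups interleaved, apart from the low value of deleted replicate 2. The means were 2.24 ± 1.5 (SD, n = 3) and 3.40 ± 1.38 (SD, n = 4). The difference was -0.50 (SE 0.40, 95% interval -1.42 to 0.42; adjusted p in limma 0.795, p = 0.371 in the exact permutation test), -0.21 within BI, -0.69 within BM and -0.08 without deleted replicate 2.

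Pou3f3 (chromosome 1, 42753991 to 42757054) showed a different order of libraries. It was at 9.04, 3.73 and 7.17 FPKM in the deleted and 8.28, 12.7, 4.34 and 10.7 FPKM in the wildtype libraries. Wildtype replicate 3, high for Pax2, Pax8 and Lhx1, was here the lowest wildtype library, and wildtype replicate 2 the highest of all. Means of 6.65 ± 2.69 (SD, n = 3) and 9.01 ± 3.60 (SD, n = 4) gave a difference of -0.37 (SE 0.37, 95% interval -1.23 to 0.48; adjusted p in limma 0.801, p = 0.429 in the exact permutation test). It was -0.71 within BI and 0.05 within BM, so its sign differed between them, and -0.06 without deleted replicate 2.

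Sim1 (chromosome 10, 50615457 to 50708958) followed nearly the same order as Pou3f3. It was at 1.88, 0.386 and 1.51 FPKM in the deleted and 2.06, 3.16, 0.862 and 2.17 FPKM in the wildtype libraries. Deleted replicate 2 and wildtype replicate 3 were again the lowest pair. Means of 1.26 ± 0.779 (SD, n = 3) and 2.07 ± 0.942 (SD, n = 4) gave a difference of -0.45 (SE 0.35, 95% interval -1.25 to 0.35; adjusted p in limma 0.795, p = 0.314 in the exact permutation test), -0.84 within BI, 0.04 within BM and -0.13 without deleted replicate 2.

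The Iroquois genes were led by a single wildtype library. Irx1 (chromosome 13, 72095680 to 72101171) was at 1.26, 0.599 and 0.877 FPKM in the deleted and 2.28, 6.52, 0.739 and 0.971 FPKM in the wildtype libraries. Irx2, its neighbour (chromosome 13, 72766426 to 72771642), was at 0.551, 0.346 and 0.541 FPKM in the deleted and 0.667, 3.17, 0.371 and 0.642 FPKM in the wildtype libraries. Both were highest in wildtype replicate 2, and their values there rested on 180 and 106 inferred fragments against 20 to 79 and 14 to 33 elsewhere. Irx1 means were 0.912 ± 0.333 (SD, n = 3) and 2.63 ± 2.68 (SD, n = 4), and Irx2 means 0.479 ± 0.116 (SD, n = 3) and 1.21 ± 1.31 (SD, n = 4). Irx1 differed by -0.68 (SE 0.49, 95% interval -1.81 to 0.45; adjusted p in limma 0.795, p = 0.314 in the exact permutation test) and Irx2 by -0.43 (exact permutation p = 0.429). Without wildtype replicate 2 these were -0.24 and -0.07, and without deleted replicate 2 they were -0.56 and -0.36. Within BI, which holds wildtype replicate 2, they were -1.39 and -0.87, and within BM 0.02 and 0.04.

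Irx3 (chromosome 8, 94322410 to 94325553), in the other Iroquois cluster, had a highest value 2.97 times its lowest, the narrowest range of the members by this ratio. It was at 2.04, 2.08 and 2.39 FPKM in the deleted and 1.38, 4.09, 1.92 and 1.52 FPKM in the wildtype libraries. Deleted replicate 2 was not low for this gene, and wildtype replicate 2 was again the highest. The means were 2.17 ± 0.193 (SD, n = 3) and 2.23 ± 1.26 (SD, n = 4). The difference was 0.04 (SE 0.27, 95% interval -0.59 to 0.68; adjusted p in limma 0.964, p = 0.914 in the exact permutation test), and its sign was negative with quantile normalization (-0.04). It was -0.19 within BI and 0.32 within BM, 0.06 without deleted replicate 2 and 0.29 without wildtype replicate 2.

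Papss2 (chromosome 19, 32670205 to 32741677) was highest in the library where 7 of the other 8 members were lowest. It was at 8.71, 34.9 and 14.0 FPKM in the deleted and 8.13, 10.6, 11.2 and 6.62 FPKM in the wildtype libraries. Deleted replicates 2 and 3 were above every wildtype library, while deleted replicate 1 was within their range. The means of 19.2 ± 13.9 (SD, n = 3) and 9.14 ± 2.13 (SD, n = 4) differed by 0.80 (SE 0.41, 95% interval -0.15 to 1.75; adjusted p in limma 0.795, p = 0.114 in the exact permutation test). It was 0.86 within BI, 0.64 within BM and 0.27 without deleted replicate 2. In deleted replicate 2 Papss2 was the most abundant member, over Pax8 and Pax2.

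**Figure D2:**
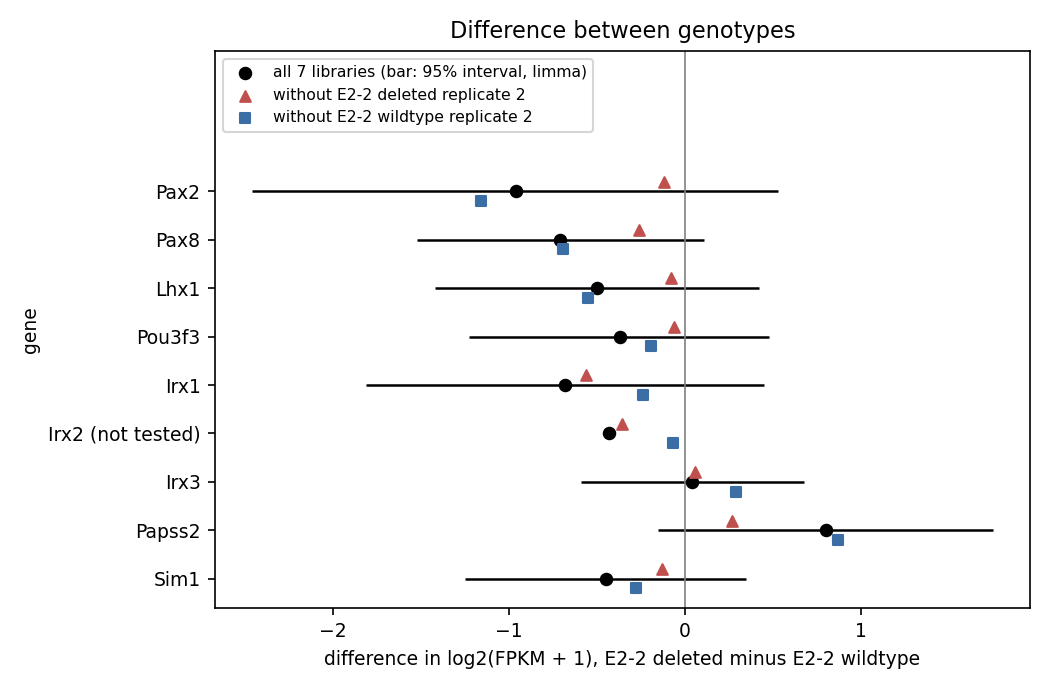
Difference of each gene in log2(FPKM + 1), E2-2 deleted minus E2-2 wildtype (horizontal axis), with all 7 libraries (circles; bars are limma 95% intervals) and without deleted replicate 2 (triangles) or wildtype replicate 2 (squares); Irx2 was under the level filter and has no bar. All 8 bars cross 0, and without deleted replicate 2 Pax2 goes from -0.96 to -0.12 and Papss2 from 0.80 to 0.27.

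Across libraries several members had a like order. There were 39 pairs compared (all 36 pairs of members and 3 with a companion gene). By Pearson r, Pou3f3 and Sim1 were the most alike of the members, with r = 0.98 and Spearman rho = 0.96 over 7 libraries (exact permutation p = 0.000397 and 0.00278, adjusted 0.00774 and 0.0181). Without deleted replicate 2 and wildtype replicate 3, the libraries farthest from the median of Pou3f3, r was 0.93. Irx1 and Irx2 had r = 0.95 and rho = 0.96 (exact permutation p = 0.00179 and 0.00278, adjusted 0.0232 and 0.0181), and r = 0.78 without wildtype replicates 1 and 2. Irx2 and Sim1 also had rho = 0.96, with r = 0.73. Pou3f3 and Irx2, and Irx1 and Sim1, had rho = 0.89, so by rank Pou3f3, Sim1, Irx1 and Irx2 were not separate sets. Pax8 and Lhx1 had r = 0.93 and rho = 0.96 (exact permutation p = 0.00575 and 0.00278, adjusted 0.0449 and 0.0181), and r = 0.93 without deleted replicates 2 and 3. Pax2 and Pax8 had r = 0.94 and rho = 0.86 (exact permutation p = 0.0109 and 0.0238, adjusted 0.0532 and 0.0929), and r = 0.56 without deleted replicate 2 and wildtype replicate 4. Pax2 and Irx1 had r = 0.11 and rho = 0.14 (exact permutation p = 0.734 and 0.783, adjusted 0.842 and 0.898). Pax2 and Papss2 ran in opposite directions, with r = -0.95 and rho = -0.75 (exact permutation p = 0.00833 and 0.0663, adjusted 0.0464 and 0.199), and r = -0.51 without deleted replicate 2 and wildtype replicate 4. All 39 correlations were added after values were seen, so their p-values are descriptive. All pairs share the same 7 libraries and the same 2 genotypes. The BI and BM sets, of 4 and 3 libraries, are too small for a correlation of their own.

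Pax2 and the progenitor factor gene Six2 put the 7 libraries in the same order. Six2 was at 62.8, 2.69 and 33.5 FPKM in the deleted and 53.4, 29.0, 54.6 and 74.8 FPKM in the wildtype libraries, and rho with Pax2 was 1.00 and r 0.99 (exact permutation p = 0.000397 and 0.000198, adjusted 0.0155 and 0.00774). Without deleted replicate 2 and wildtype replicate 4, r was 0.93. This correlation was added after values were seen. As 525 genes (3.90%) had r of at least 0.95 with Pax2, it singles out no link between Pax2 and Six2. The ratio of Pax2 to Six2 FPKM was 0.577 to 0.810 in 6 libraries and 1.78 in deleted replicate 2, where Six2 was lower still. Six2 differed by -1.35 between genotypes (SE 0.88; limma adjusted p = 0.795), and by -0.13 without deleted replicate 2.

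**Figure D3:**
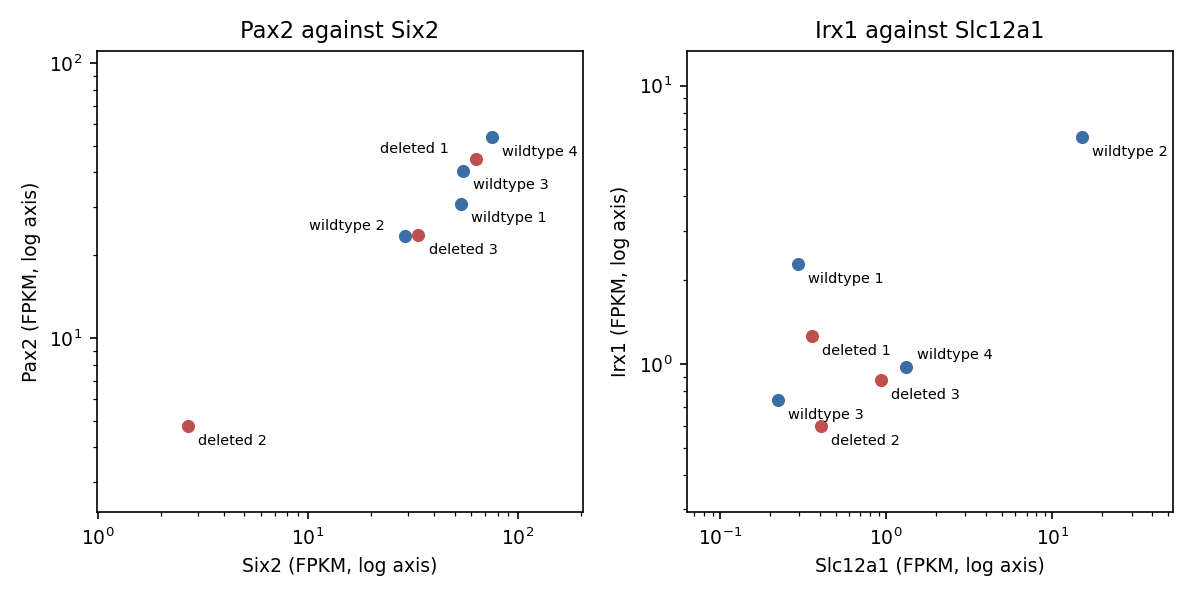
Pax2 against Six2 (left) and Irx1 against the loop of Henle transporter gene Slc12a1 (right), in FPKM on log axes; each point is a library, red for E2-2 deleted and blue for E2-2 wildtype. Pax2 and Six2 rank the 7 libraries alike, and wildtype replicate 2 is at the top right of the other panel, with Irx1 at 6.52 and Slc12a1 at 15.0 FPKM.

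Among 24 genes of nephron induction and the renal vesicle, 23 were tested, 4 with a positive and 19 with a negative difference (median -0.27). The share negative over all genes tested was 60.7%. Within BM 12 of these 23 were negative, against 48.6% of all genes there. None passed the adjusted threshold, and 4 of the 23 had an unadjusted p under 0.05, against 4.49% of all genes. Of the 23, 1 was lower and 2 were higher in every deleted library, against 2.05% and 2.84% of all genes tested. Fgf8, a growth factor of the renal vesicle that acts before Lhx1, was at 2.69, 0.271 and 2.26 FPKM in the deleted and 3.02, 2.94, 4.52 and 5.02 FPKM in the wildtype libraries. These values rested on only 2 to 48 inferred fragments in the deleted and 34 to 102 in the wildtype libraries. Every deleted library was under every wildtype library, a difference of -0.95 (SE 0.38; limma adjusted p = 0.795, exact permutation p = 0.0286, the smallest possible), -0.46 without deleted replicate 2, -0.88 within BI and -0.82 within BM. Wnt4, the Wnt ligand that drives the mesenchyme to become epithelial, was at 41.1, 100 and 39.0 FPKM in the deleted and 28.7, 30.3, 36.8 and 30.5 FPKM in the wildtype libraries. Here the deleted libraries were all higher, by 0.77 (SE 0.31; limma adjusted p = 0.795), or 0.34 without deleted replicate 2, 1.10 within BI and 0.21 within BM. Bmp2, a bone morphogenetic protein of the vesicle, differed by 0.88 (SE 0.36; limma adjusted p = 0.795), or 0.56 without that library.

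Wildtype replicate 2, the library with the highest Iroquois, Pou3f3 and Sim1 levels, was also highest for genes of differentiated nephron segments. It had the highest value of the 7 libraries in 9 of 17 distal and loop genes, 10 of 14 proximal tubule genes, 5 of 9 podocyte genes and 11 of 24 renal vesicle genes, against 11.9% of all genes tested and 0 of 10 progenitor genes. The list counts include genes too low to be tested, which the 11.9% leaves out. In the distal and in the proximal list, 5 genes were under 1 FPKM in every library. Wildtype replicate 2 was also the shallowest library, at 14.5 M inferred fragments. Slc12a1, the salt transporter of the thick ascending limb, was at 15.0 FPKM there and at 0.223 to 1.32 in the other 6 libraries. The loop of Henle gene Umod was at 4.89 FPKM there and at 0.123 to 1.88 elsewhere. Hnf4a, a proximal tubule factor, was at 9.42 FPKM there and at 0.827 to 3.04 elsewhere. Irx1 and Slc12a1 had r = 0.85 and rho = 0.32 over the 7 libraries (exact permutation p = 0.0865 and 0.498, adjusted 0.187 and 0.719), and r = 0.20 without wildtype replicates 1 and 2. The part of this library's cell makeup, or of the days in culture, in the Iroquois values was not tested.

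**Figure D4:**
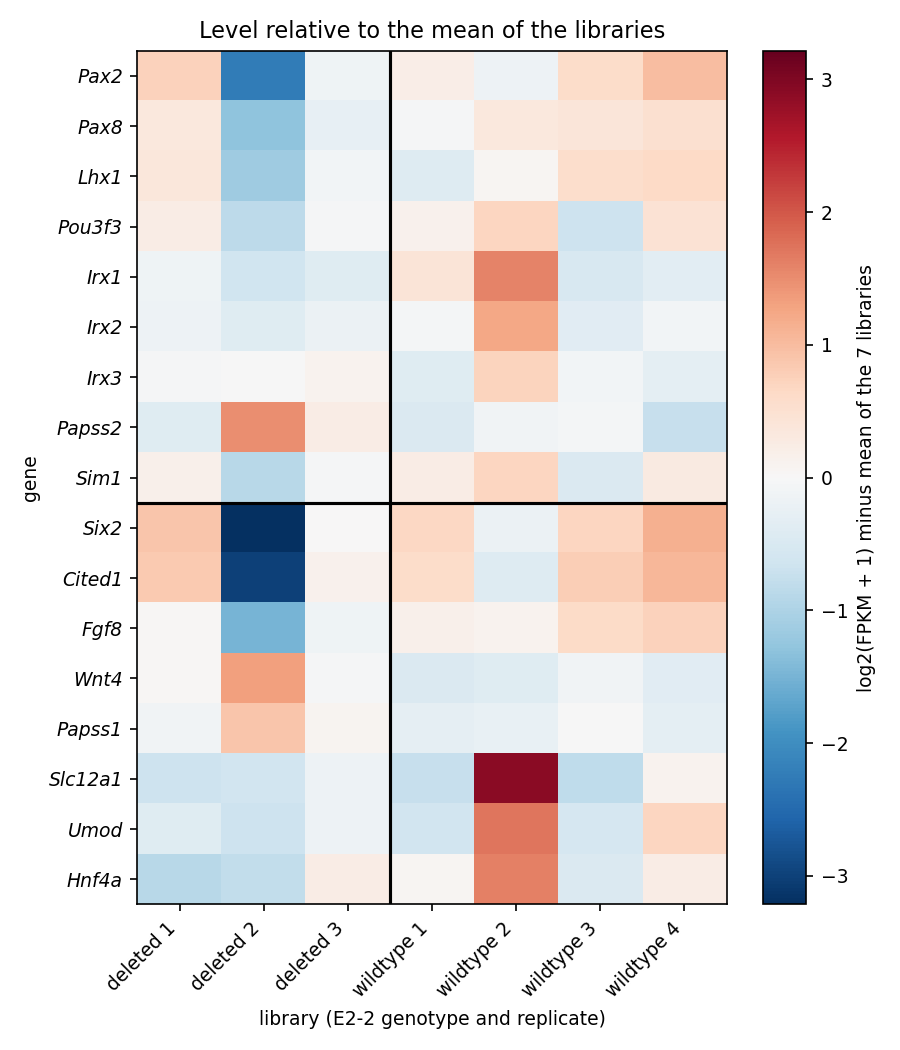
Level of each gene in each library as log2(FPKM + 1) minus the gene's mean over the 7 libraries (colour, red above and blue below the mean); rows above the black line are the 9 genes and those below it are companion genes. Deleted replicate 2 is blue for Pax2, Pax8, Lhx1, Six2 and Cited1 and red for Papss2, Papss1 and Wnt4, and wildtype replicate 2 is red for Irx1, Irx2, Slc12a1, Umod and Hnf4a.

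In the distal and proximal lists, 0 tested genes were above and 0 below in every deleted library, against 2.84% and 2.05% of all genes tested. In the distal list 7 of 17 genes were tested, 3 positive and 4 negative, and in the proximal list 5 of 14, 1 positive and 4 negative. None passed the adjusted threshold, and within BM 5 of the 7 and 4 of the 5 were positive, against 51.4% of all genes there. The 3 distal genes of smallest p were Umod (-0.72, SE 0.56), Slc12a1 (-0.84, SE 0.85) and the kinase gene Wnk1 (0.12, SE 0.10). Without wildtype replicate 2, Umod differed by -0.25 and Slc12a1 by 0.00, and without deleted replicate 2 Wnk1 differed by 0.07. The 3 proximal genes of smallest p were the water channel gene Aqp1 (1.09, SE 0.55), Hnf4a (-0.84, SE 0.50) and the phosphate transporter gene Slc34a1 (-0.67, SE 0.48). Aqp1 differed by 0.34 without deleted replicate 2. Without wildtype replicate 2, Hnf4a differed by -0.42 and Slc34a1 by -0.31. Within BI the latter genes differed by -1.69 and -1.39, and within BM by 0.37 and 0.40. Of the 9 podocyte genes, all tested, 4 were positive, among them Magi2 (0.37, SE 0.20; 0.22 without deleted replicate 2), and 5 negative, and none passed the adjusted threshold. Within BM 6 of the 9 were positive, and without wildtype replicate 2 it was 5.

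Deleted replicate 2, the library with the lowest Pax2, Pax8 and Lhx1, was lowest for 7 of the 9 members and for 7 of 10 progenitor genes, against 44.4% of all genes tested. The summed FPKM of the progenitor list was 170.5 in that library, 346.4 and 410.4 in the other deleted libraries and 236.9 to 433.7 in the wildtype libraries. Cited1, a marker of uninduced progenitors, was at 3.60 FPKM there against 26.6 to 76.8 in the other 6. Of the 10 progenitor genes 8 had a negative and 2 a positive difference, and none passed the adjusted threshold. Without deleted replicate 2 the count turned, to 3 negative and 7 positive, where 53.3% of all genes tested were positive. The smallest p-values were those of Crym, which was on the positive side (0.50, SE 0.28; 0.26 without wildtype replicate 3), Six2 and Cited1 (-1.18, SE 0.86; -0.01 without deleted replicate 2). The part of the progenitor share in the members' values was not tested.

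Genes around Pax2 and Pax8 in the intermediate mesoderm differed in both directions. Of 17 genes, 7 were positive and 10 negative (median -0.17), and none passed the adjusted threshold. Without deleted replicate 2, 11 were positive and 6 negative, where 53.3% of all genes tested were positive. Apart from Wnt4, the smallest p-values belonged to the homeobox gene Hoxa11 (-0.24, SE 0.12) and to Gdnf, the ligand that draws in the ureteric bud (-0.79, SE 0.54; -0.05 without deleted replicate 2). Of the 18 ureteric bud genes 13 were positive (median 0.24), and none passed the adjusted threshold. Without wildtype replicate 3 the direction turned, with 7 positive and 11 negative (median -0.15), where 64.4% of all genes were negative. Within BI 9 were positive and 9 negative, where 66.1% of all genes were negative. Wildtype replicate 3 was lowest in 14 of the 18, against 21.4% of all genes tested, and in 7 of 7 endothelial genes. Its summed FPKM of the ureteric bud list was 158.6, against 417.8 to 579.0 in the other 6 libraries. The smallest p-values were those of Gata2 (0.83, SE 0.34; 0.50 without deleted replicate 2), Gfra1 (0.52, SE 0.35) and Krt19 (0.88, SE 0.63). Without wildtype replicate 3, Gfra1 differed by 0.22 and Krt19 by 0.27. That library was also the lowest wildtype library for Pou3f3, Sim1, Irx1 and Irx2, and the part of the ureteric bud in those values was not tested.

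Papss2 and its relative Papss1 put the libraries in much the same order. Their correlation was added after values were seen, and 135 genes (1.00%) had r of at least 0.95 with Papss2. Papss1, the other PAPS synthase gene, was at 61.9, 125.1 and 71.4 FPKM in the deleted and 54.8, 57.3, 66.9 and 54.5 FPKM in the wildtype libraries, with r = 0.97 and rho = 0.96 to Papss2 (exact permutation p = 0.00238 and 0.00278, adjusted 0.0232 and 0.0181; r = 0.82 without deleted replicate 2 and wildtype replicate 4). It differed by 0.49 (SE 0.23; limma adjusted p = 0.795), or by 0.19 without deleted replicate 2. In deleted replicate 2, where Papss2 was highest, the cartilage collagen gene Col2a1 was at 1.60 FPKM, its lowest, against 4.89 to 22.9 elsewhere, and Acan, the cartilage proteoglycan gene, was at 0.386. Acan, under the minimum level and not tested, was at 0.274 to 0.386 FPKM in the deleted and 0.919 to 1.44 FPKM in the wildtype libraries. Over the 14 cartilage and sulfation genes, deleted replicate 2 was lowest for 5 and highest for 5, against 44.4% and 17.2% of all genes tested. Col2a1 and Acan therefore do not stand for the list. Of these 14 genes 10 were tested, 7 positive and 3 negative. Those of smallest p were the link protein gene Hapln1 (0.73, SE 0.17), the sulfotransferase gene Chst11 (0.60, SE 0.18; 0.38 without deleted replicate 2) and Papss1. Hapln1 and Chst11, 2 of the 10, were higher in every deleted library, against 2.84% of all genes tested, and did not pass the threshold (limma adjusted p = 0.795).

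Close relatives of the members were mostly low. Of 29 relatives and cofactors, 17 were under 1 FPKM in every library, among them Pax5, Pax6, Lhx5, Pou3f2 and Irx4, and 10 were tested. Lhx9, a LIM-homeobox gene of gonad and limb, averaged 1.97 ± 1.63 FPKM over the deleted libraries (SD, n = 3) and 0.471 ± 0.320 over the wildtype ones (SD, n = 4), 0.90 apart on the log2 scale (SE 0.37), or 0.48 without deleted replicate 2. Irx5, the partner of Irx3 in its cluster, averaged 2.79 ± 0.945 FPKM (SD, n = 3) and 1.42 ± 0.704 FPKM (SD, n = 4) in the same order, 0.66 apart (SE 0.28; 0.23 within BI and 1.19 within BM). Neither passed (limma adjusted p = 0.795). The LIM-domain cofactor genes Ldb1 and Ldb2, which Lhx1 needs, differed by -0.04 (SE 0.12) and -0.11 (SE 0.16), both by 0.03 without deleted replicate 2. Arnt and Arnt2, candidate dimer partners of Sim1, differed by 0.04 (SE 0.09) and -0.04 (SE 0.19), or 0.00 and 0.14 without that library. Lmx1b differed by -0.57 (SE 0.46) and the Pax2 cofactor gene Paxip1 by -0.16 (SE 0.13), or by -0.02 and -0.04 without it. Isl1 differed by 0.71 (SE 0.54), with opposite signs within BI (-0.45) and BM (2.27).

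Several members are also transcribed in neurons. Of 17 spinal cord and neuronal genes, 7 were under 1 FPKM in every library, Nkx2-2 was listed at 0 in all, and the highest values of Sox1 and Olig2 were 0.0106 and 0.0206 FPKM. The summed list was at 44.9 to 205.6 FPKM in the deleted and 32.2 to 159.0 in the wildtype libraries. Its most abundant genes, Tubb3 and Stmn2, were highest in deleted replicate 3 (66.8 and 79.6 FPKM) and wildtype replicate 1 (52.9 and 53.6 FPKM). The part of neuronal cells in the members' values was not tested. Of the 9 neuronal genes tested 7 were positive, 4 without deleted replicate 3, 1 within BI and 9 within BM. The smallest p-values were those of Syt1 (0.65, SE 0.44; 0.32 without wildtype replicate 4), Isl1 and Stmn2 (0.77, SE 0.88; 0.03 without deleted replicate 3, -1.13 within BI and 3.41 within BM). Stromal genes were 4 positive and 7 negative, and 6 positive and 5 negative without deleted replicate 1 or without deleted replicate 3. Their smallest p-values were those of Pdgfra (0.31, SE 0.13), the guidance gene Ntn1 (-0.71, SE 0.30) and Foxd1 (-1.04, SE 0.53). Without deleted replicate 2 these differed by 0.20, -0.37 and -0.35. Endothelial genes were 5 positive and 2 negative, and 3 positive and 4 negative without wildtype replicate 3, with 2 positive within BI. Their smallest p-values were those of Tek (0.86, SE 0.32; 0.23 within BI and 1.58 within BM), Flt1 (0.49, SE 0.24; 0.30 without deleted replicate 2) and Emcn (0.29, SE 0.31; 0.08 without wildtype replicate 3). None of these passed (limma adjusted p = 0.795 to 0.819). Ntn1 was lower and Tek higher in every deleted library, against 2.05% and 2.84% of all genes tested.

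The genes most like each member over the 7 libraries, by Pearson r of log2(FPKM + 1), are given as a description, with no test. For Pax2 they were Pold1 (r = 0.998), Cldn9 (0.997) and Ddx39b (0.996), for Pax8 Dcaf15 (0.998) and Ttll12 (0.995), and for Lhx1 Nsun2 (0.987), Spag7 (0.986) and Cnot3 (0.986). For Pou3f3 they were Selenbp1 (0.986) and Marveld2 (0.984), and for Sim1 Pcdhb8 (0.990), Crb3 (0.988) and Hpn (0.986). For Papss2 they were Npc1 (0.995), Filip1l (0.994) and Npr3 (0.993). For Irx1 they were Tspan18 (0.967), Tmem116 (0.958) and Arhgap24 (0.958), and for Irx3 Moap1 (0.956), Ankrd13a (0.938) and B4galt1 (0.935). With 7 libraries such values were common for some members: 525 genes (3.90%) had r of at least 0.95 with Pax2, 173 (1.28%) with Pax8 and 135 (1.00%) with Papss2, but 5 with Irx1 and 1 with Irx3. Without deleted replicate 2 and wildtype replicate 2, r was 0.79, 0.70 and 0.84 for the genes named for Irx1. It was then 0.89, 0.80 and 0.94 for those of Irx3, and 0.96 to 1.00 for those of the other members.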

How the data were processed

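RNA of 7 cultured fetal kidneys was measured (3 E2-2 deleted, 4 E2-2 wildtype). The authors deposited 1 FPKM table per library, with bounds of each estimate, per the file headers. Per the submitters' processing notes, the tools were Cufflinks 2.0.2, TopHat2 2.0.4 and CASAVA 1.8.2, with no role given. For the genome build nothing is stated (not given in the sources used here), so the members' coordinates carry no build. The deposited start was taken as counted from 0, since end minus start equalled the RefSeq gene length for 8691 of 20480 symbols (528 for the other reading), and is printed from 1.

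Depth differences are scaled out of FPKM, but a low gene is less precise in a shallow library. The tables hold no counts: fragments were inferred as the square of 2 times the FPKM over its distance to the upper bound (under 300 fragments, 78.9% to 80.2% lay within 0.05 of a whole number). Rows of 1 symbol were summed, and small RNAs and genes whose estimate was marked failed or low in data were dropped. The values of 13466 genes with a mean of at least 1 FPKM were taken as log2(FPKM + 1) and fitted with limma 3.58.1 (R 4.3.3, trend, 2-sided, Benjamini-Hochberg over all genes). The test was checked on simulated data, with changes put only into genes of at least 5 FPKM and low spread. That check does not cover its power for members with lower or more variable values. Single genes also had an exact 2-sided permutation test over 35 regroupings (smallest p 0.0286). Replicates are numbered in deposit order, which gives no pairing. The members and lists were chosen with earlier results of these data known. Named genes are the members, the 3 of smallest p in each list, the relatives and cofactors, compartment markers and the 3 genes most like each member (a few of these are not reported here); others (Tcf4, Col2a1, Acan, Tubb3, Sox1, Olig2, Nkx2-2, and and 5 low relatives) and the 39 correlations were added after values were seen. Alternatives were other pseudocounts, filters, normalizations, library weights, no trend, 1 row per symbol, a BI/BM term and leaving out each library. The listed genes' counts without each library and within BI and BM were added after seeing the data.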

Additional observations from a re-analysis of the deposited data

Results flagged for a closer look

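Irx2 in E2-2 wildtype replicate 2 was at 3.17 FPKM, far above the other 3 wildtype libraries (0.371 to 0.667). Its gap to the nearest of them was 0.894 of the range of the group, past the 95% critical value of Dixon's test for 4 samples. On the log2 scale the ratio was 0.825, just under it. Chance passes this value in about 1 in 20 groups, and 18 ends (the highest and lowest value of 9 genes) were checked. Irx3 and Irx1 were also highest in this library, with ratios of 0.801 and 0.734, under the critical value.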

How the results depend on the processing

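All 8 tested members stayed short of the threshold under every alternative run (smallest adjusted p of a member 0.375), and 7 of them kept their sign wherever limma was fitted. The exception was Irx3, at -0.04 with quantile normalization and from -0.08 to 0.29 over the fits that left out 1 library. Over those fits Pax2 ranged from -1.61 to -0.12, Pax8 from -1.09 to -0.26, Lhx1 from -0.82 to -0.08 and Pou3f3 from -0.65 to -0.06. Irx1 ranged from -0.95 to -0.24, Papss2 from 0.27 to 1.22 and Sim1 from -0.67 to -0.13. Irx2 was not fitted there, and its plain difference of means ranged from -0.61 to -0.07. The end nearest 0 came without deleted replicate 2, or, for Irx1 and Irx2, without wildtype replicate 2. Irx2 had no limma value except with no filter (-0.43, adjusted p = 0.891), and differed by -0.76 with a pseudocount of 0.1. Genes past the adjusted threshold numbered 4 with no filter on low values, 1 with a weight per library and 0 otherwise. Those at an unadjusted p under 0.05 (605) numbered 984 with no filter, 394 at a minimum of 5 FPKM, 1143 with a weight per library, 250 without deleted replicate 2, 336 without wildtype replicate 4 and 1473 without deleted replicate 1. Depth limits Irx2, Irx1 and Lhx1, which rested on as few as 14, 20 and 30 inferred fragments. Within the BM libraries, with a single deleted library, values have no test. No paired analysis was possible because the labels give no replicate numbers.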
